A study of Mus musculus with 8 samples.

Results

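Mitochondrial fusion and fission genes were followed in brown adipose tissue (BAT) of single mice. The 10 members, *Mfn1*, *Mfn2*, *Opa1*, *Oma1*, *Yme1l1*, *Dnm1l*, *Fis1*, *Mff*, *Mief1* and *Mief2*, were named by symbol and found by matching Ensembl identifiers to symbols with GENCODE M21, a mouse annotation of GRCm38. All 10 were found among the 44674 genes of the deposited table, and all 10 passed the filter on low counts together with the other genes tested, 14489 in all.

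The study deleted the orexin receptor Ox1R (gene *Hcrtr1*) in Sert-expressing cells (Sert is the serotonin transporter) and asked how BAT gene expression differed at the end of a hyperinsulinemic-euglycemic clamp. The groups were 4 male mice labelled Sert-Ox1R and 4 male mice labelled CTRL, each mouse giving 1 library. All 8 received a high-fat diet (HFD) from week 4 to week 18. In the study's methods, Ox1RΔSERT mice carry Ox1R fl/fl with a Sert-Cre (Slc6a4-Cre) transgene, and controls come from the same breeding with Ox1R fl/fl and no Cre, so both groups share the floxed allele. Sert-Cre recombination was also seen outside the raphe nuclei, in cingulate cortex and thalamus, and whether it occurred in BAT was not tested here. *Slc6a4*, which encodes Sert, had 6 to 21 estimated counts per mouse in BAT. Estimated counts of *Hcrtr1* in BAT were 0, 5, 2 and 3 in CTRL mice 10684, 11253, 11560 and 11563, and 0, 3, 5 and 4 in Sert-Ox1R mice 11243, 11601, 11613 and 11708. At 0 to 5 counts per mouse the receptor in BAT neither checks the labels nor shows a difference. Values below follow the same order of mice.

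Total estimated counts per mouse ran from 35852708 to 50063339. Mitochondrially encoded genes took 40.0%, 46.8%, 42.7% and 42.1% of the counts in the CTRL mice and 44.6%, 33.6%, 34.0% and 36.2% in the Sert-Ox1R mice. Sert-Ox1R mice 11601 and 11708 stood apart from the other 6 mice on the first principal component, which held 52.2% of the variance, with scores of 61.6 and 80.5 where the highest of the other mice was 8.62. The log2 fold changes of the members and the medians of the mitochondrial lists are therefore also given without these mice.

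All 10 brown adipocyte markers were tested, none was at 0, and *Ucp1*, the uncoupling protein of brown fat, averaged 2137 TPM, a level corrected for transcript length, so the tissue had the transcripts of its label. Their summed level in CPM (counts scaled by TMM to a common library size) was 13912, 15208, 15122 and 14651 in CTRL and 13341, 9914, 12590 and 9027 in Sert-Ox1R, lowest in mice 11708 and 11601. In TPM the sum of mouse 11601 was 16282, above 3 of the 4 controls, while mouse 11708 was the lowest of all 8 at 14020. The most abundant was *Fabp4*, a fatty acid carrier, at 7535 TPM. The sum of the leukocyte and macrophage markers was 185, 277, 123 and 157 CPM in CTRL and 189, 932, 206 and 701 CPM in Sert-Ox1R, and that of the fibroblast markers was 429, 1161, 611 and 621 CPM in CTRL and 751, 6419, 1134 and 3059 CPM in Sert-Ox1R. Mice 11601 and 11708 were the highest for each of the 8 leukocyte and macrophage markers tested and each of the 6 fibroblast markers, with *Lyz2* (147 TPM) and *Col3a1* (244 TPM) the most abundant. The skeletal muscle markers, led by *Acta1* (62.0 TPM), summed to 9.31, 1957, 5.31 and 2.73 CPM in CTRL and 51.5, 223, 11.5 and 2713 CPM in Sert-Ox1R, highest in mice 11253 and 11708. Endothelial markers, led by *Cldn5* (25.97 TPM), nerve and Schwann cell markers, led by *S100b* (117 TPM), and white adipocyte markers, led by *Lep* (20.05 TPM), had median log2 fold changes of -0.02, -0.14 and 0.75. Without mice 11601 and 11708 these were 0.04, -0.03 and 0.05. On the TPM scale they were 0.28, 0.08 and 0.77, where the median of all genes was 0.23. With library size alone they were 0.20, 0.07 and 0.96, where that of all genes was 0.22. No marker of any list was at 0 in all 8 mice.

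Mitochondria join and divide continuously. The mitofusins MFN1 and MFN2 join outer membranes and OPA1 joins inner membranes, while the proteases OMA1 and YME1L1 cut OPA1 into shorter forms. DRP1, the product of *Dnm1l*, is recruited from the cytosol by adaptors on the outer membrane and constricts the organelle, and in brown adipocytes division accompanies the thermogenic response to adrenergic stimulation. Much of this control acts on proteins, through cleavage and phosphorylation, which transcript levels do not show.

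In the quasi-likelihood test of edgeR, Sert-Ox1R against CTRL, 0 of the 10 members had an adjusted p under 0.05, as had 0 of all 14489 genes tested (0%). DESeq2 called 265 of 15119 genes with an adjusted p (1.75%), again with 0 of the 10 members, whose adjusted p ran from 0.263 to 0.916. *Mff* alone had an unadjusted p under 0.05 in edgeR, 1 of 10 members where 2201 of 14489 genes did (15.2%). The 10 log2 fold changes were below 0 under TMM and RLE scaling, as were 49.6% of those of all genes under TMM, but all 10 lay above 0 on the TPM scale and 8 of 10 with library size alone. Their median was -0.14 against 0.00211 over all genes tested. The 4 values of 1 group lay apart from those of the other in 0 of the 10 members and in 797 of 14489 genes (5.5%). In bulk tissue fewer cells of a type and less RNA per cell cannot be told apart.

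**Figure D1:**
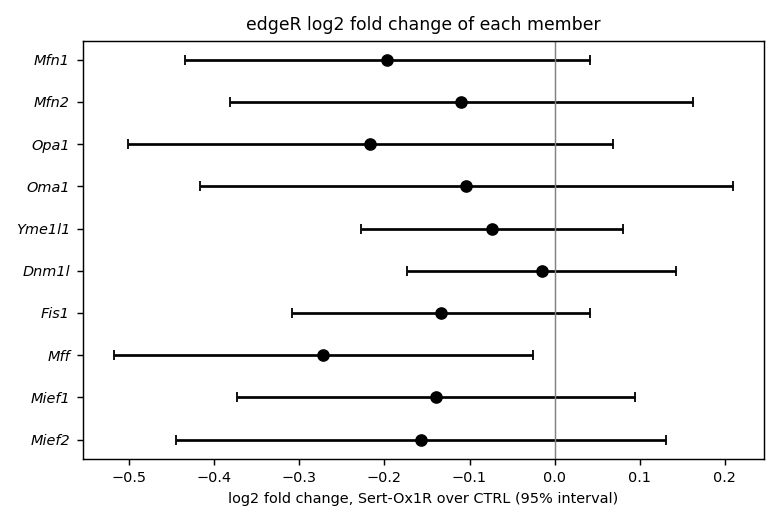
Log2 fold change of each member, Sert-Ox1R over CTRL, from edgeR with TMM scaling (points) and its 95% interval (bars). The interval holds 0 for every member except *Mff* (-0.52 to -0.03), and all points lie above 0 when TPM is used in place of TMM-scaled counts.

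Promoters are shown for the 4 members with the ETS or NRF1 letters, which were among the 7 members with their lowest CPM, but not their lowest TPM, in the same mice, and the choice was made after the matches were seen. RefSeq promoter entries of GRCm38.p6, 250 bases before to 50 after a start, existed for all 10 members, 15 entries in all. Letters of 7 motifs were searched on both strands in all 32851 entries. The ETS letters CCGGAAGT were in 3.89% of all entries and in 4 of the members' 15, those of *Mfn1*, *Fis1* and *Mief1*, and the NRF1 core GCATGCGC was in 2.71% and in 1 of 15, that of *Opa1*. TCAAGGTCA (ERR element, 0.423% of the entries), TGACGTCA (cAMP response element, 1.79%) and AAGATGGC (YY1 core, 2.75%) were in none of the members' entries, CACGTG (E-box, 7.15%) was in 1 of 15, that of *Mief2*, and CCAAT (37.4%) in 7 of 15, from 7 members. A match of letters is a description and not a binding site. Each stretch is on the + strand and ends before or at most 5 bases into the annotated gene, with only the ETS or NRF1 letters in capitals. In *Opa1* the capitals hold the NRF1 core on both strands, in 2 overlapping matches.
*Mfn1*, chr3:32529405-32529464: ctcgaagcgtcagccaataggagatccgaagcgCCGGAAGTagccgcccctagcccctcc
*Mief1*, chr15:80233963-80234022: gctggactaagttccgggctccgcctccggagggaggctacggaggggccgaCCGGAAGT
*Fis1*, chr5:136953215-136953274: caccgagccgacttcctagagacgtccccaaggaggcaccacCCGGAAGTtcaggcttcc
*Opa1*, chr16:29579249-29579308: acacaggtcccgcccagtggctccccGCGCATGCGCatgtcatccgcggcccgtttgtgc

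The mitofusin gene *Mfn1* (ENSMUSG00000027668, chr3:32529465-32579239, + strand) was at 68.8, 77.1, 80.6 and 84.0 CPM in CTRL and 72.7, 58.8, 74.8 and 64.7 CPM in Sert-Ox1R. Mice 11601 and 11708 were the lowest of all 8 and the other Sert-Ox1R mice lay among the controls. The log2 fold change was -0.20 (SE 0.10, 95% interval -0.43 to 0.04) with an edgeR adjusted p of 0.383, and the exact permutation test, two-sided, gave p = 0.114. With an offset for the average transcript length the log2 fold change was -0.12 (edgeR adjusted p = 0.647). With 4 mice against 4 the smallest p this permutation test can give is 0.0286. The estimated counts of *Mfn1* were not whole, beyond a tolerance of 0.01, in all 8 mice, so reads were divided with at least 1 other gene and the level is uncertain to that extent.

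*Mfn2* (ENSMUSG00000029020, chr4:147873599-147904704, - strand), which encodes the other mitofusin, was at 277, 263, 261 and 270 CPM in CTRL and 260, 205, 295 and 232 CPM in Sert-Ox1R. The controls lay close to each other, while the Sert-Ox1R group held both the highest mouse, 11613, and the lowest, 11601. In Sert-Ox1R 3 of 4 mice lay below every control, mouse 11243 only just. Its coefficient of variation was 2.84% in CTRL and 15.6% in Sert-Ox1R, and the log2 fold change was -0.11 (95% interval -0.38 to 0.16, edgeR adjusted p = 0.665).

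*Opa1* (ENSMUSG00000038084, chr16:29579334-29654884, + strand), the inner membrane GTPase, was at 237, 192, 232 and 216 CPM in CTRL and 212, 167, 213 and 162 CPM in Sert-Ox1R. Mice 11601 and 11708 lay below every control and mice 11243 and 11613 between control values. The log2 fold change was -0.22 (SE 0.13, 95% interval -0.50 to 0.07) with an edgeR adjusted p of 0.416 and an exact permutation p of 0.143.

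*Oma1* (ENSMUSG00000035069, chr4:103313812-103371868, + strand), a stress-activated protease of OPA1, was the member with the fewest reads, 186 to 287 estimated counts per mouse. It was at 7.51, 5.90, 6.23 and 5.23 CPM in CTRL and 6.07, 5.58, 5.79 and 5.70 CPM in Sert-Ox1R. All 4 Sert-Ox1R values lay inside the range of the controls, with a log2 fold change of -0.10 (95% interval -0.42 to 0.21, edgeR adjusted p = 0.727). It was -0.0032 without CTRL mouse 10684, -0.19 without CTRL mouse 11563 and -0.02 with an offset for the average transcript length. *Yme1l1* (ENSMUSG00000026775, chr2:23156369-23199260, + strand), the protease that cuts OPA1 constitutively, was at 59.2, 64.4, 64.2 and 62.2 CPM in CTRL and 58.7, 60.9, 58.2 and 59.9 CPM in Sert-Ox1R. Mice 11243 and 11613 lay just below the lowest control, and mice 11601 and 11708 above it. The log2 fold change was -0.07 (95% interval -0.23 to 0.08, edgeR adjusted p = 0.605), and -0.03 with the length offset.

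The fission GTPase gene *Dnm1l* (ENSMUSG00000022789, chr16:16312230-16358959, - strand) was at 62.4, 55.7, 58.3 and 60.2 CPM in CTRL and 58.2, 58.2, 57.6 and 60.2 CPM in Sert-Ox1R. All 4 Sert-Ox1R values, those of mice 11601 and 11708 among them, lay inside the control range. The log2 fold change was -0.01 (95% interval -0.17 to 0.14, edgeR adjusted p = 0.934), an interval from -11.3% to 10.4%. In BAT of other, random-fed obese mice, the paper reported reduced *Dnm1l* by quantitative RT-PCR. *Mfn1* tended to be lower there, and *Mfn2*, *Fis1* and *Mff* were not significantly changed. In protein MFN1 and FIS1 were reduced, and OPA1, MFN2, DRP1 and MFF were unchanged.

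Among the outer membrane adaptors, *Mff* (ENSMUSG00000026150, chr1:82724890-82752394, + strand), a tail-anchored recruiter of DRP1, was at 70.2, 80.7, 89.9 and 87.0 CPM in CTRL and 77.4, 63.5, 68.3 and 62.4 CPM in Sert-Ox1R. In Sert-Ox1R, 3 of 4 mice lay below the lowest control, and mouse 11243 lay between controls 10684 and 11253. The log2 fold change was -0.27 (SE 0.11, 95% interval -0.52 to -0.03) with an edgeR adjusted p of 0.317, which did not pass, and an exact permutation p of 0.0571. Without mice 11601 and 11708 it was -0.17 with an edgeR adjusted p of 0.996.

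*Fis1* (ENSMUSG00000019054, chr5:136953275-136966234, + strand), another tail-anchored outer membrane protein, was at 34.7, 32.0, 32.4 and 33.2 CPM in CTRL and 32.1, 30.4, 30.5 and 27.6 CPM in Sert-Ox1R. Again 3 of 4 Sert-Ox1R mice lay below every control, and mouse 11243 stood just above the lowest control, 11253. The log2 fold change was -0.13 (SE 0.08, 95% interval -0.31 to 0.04) with an edgeR adjusted p of 0.415 and an exact permutation p of 0.0571. With an offset for the average transcript length it was -0.17 (edgeR adjusted p = 0.364).

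*Mief1* (ENSMUSG00000022412, chr15:80234018-80253371, + strand) and *Mief2* (ENSMUSG00000018599, chr11:60728398-60732951, + strand) encode the DRP1 receptors MID51 and MID49. *Mief1* was at 32.7, 34.0, 33.2 and 32.3 CPM in CTRL and 32.7, 25.4, 33.8 and 28.1 CPM in Sert-Ox1R, and *Mief2* was at 31.7, 32.7, 34.8 and 31.5 CPM and 30.6, 23.1, 35.4 and 28.0 CPM. In both genes mice 11601 and 11708 lay lowest, and for *Mief2* mouse 11613 was the highest of all 8. The log2 fold changes were -0.14 (95% interval -0.37 to 0.09) and -0.16 (95% interval -0.44 to 0.13), with edgeR adjusted p of 0.515 and 0.550.

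**Figure D2:**
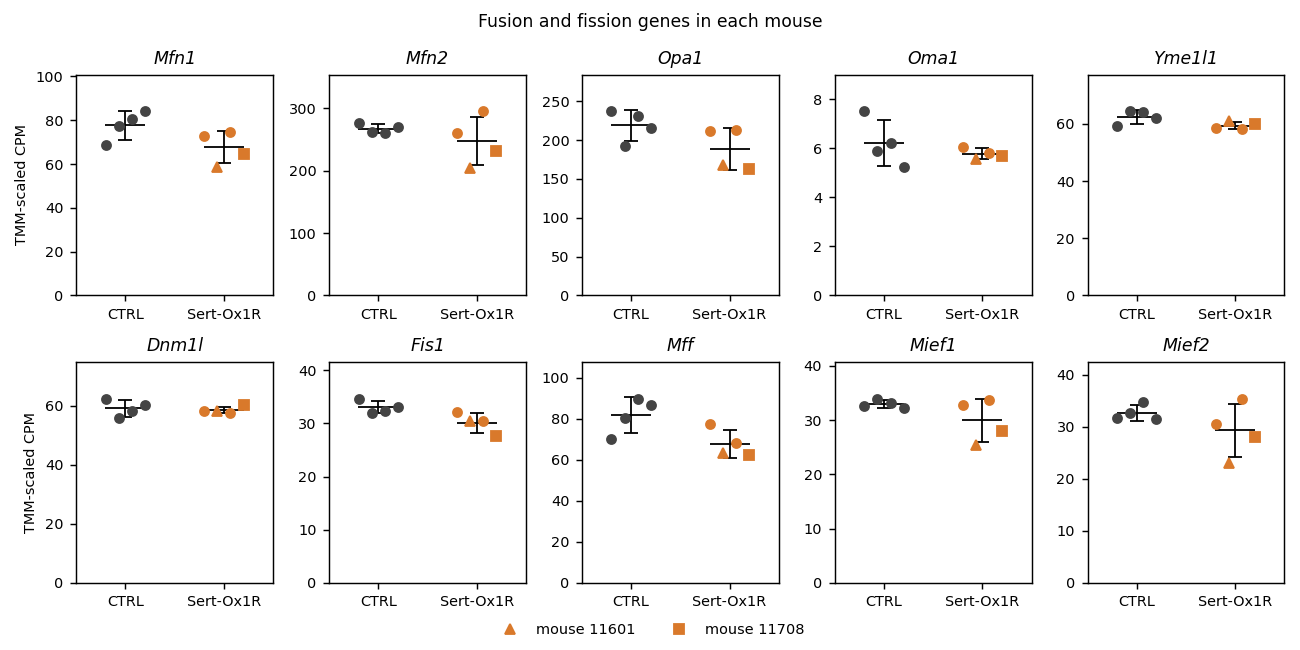
TMM-scaled CPM of each member in each mouse (points), with the mean and SD of 4 mice per group (bars). Mice 11601 (triangle) and 11708 (square) are the lowest of the 8 in 7 of the 10 members in CPM and in 0 in TPM, and the groups overlap in all 10.

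In CPM, mice 11601 and 11708 were the lowest 2 of the 8 mice in 7 of the 10 members and in 2218 of the 14489 genes tested (15.3%). In TPM they were the lowest 2 in 0 members and 0.407% of the genes. They were the highest 2 in TPM in 4 of the 10 members, *Oma1*, *Yme1l1*, *Dnm1l* and *Fis1*, and the share over all genes was not counted. The exceptions in CPM were *Oma1*, *Yme1l1* and *Dnm1l*. The median over the members of the log2 ratio to the CTRL mean, in CPM, was -0.37 in mouse 11601 and -0.23 in mouse 11708, against -0.05 in mice 11243 and 11613. These were also the mice with the highest leukocyte and fibroblast sums and, in CPM but for mouse 11601 not in TPM, the lowest brown adipocyte sums, and the part of these differences in the members' values was not tested. Leaving both out kept only mice 11243 and 11613 in Sert-Ox1R, with less power. It also raised the Sert-Ox1R mean of those 7 members by construction. Without both mice the median log2 fold change of the members was -0.05 against -0.01 over all genes tested, and *Mfn2*, *Mief1* and *Mief2* were at 0.06, 0.01 and 0.02. *Mfn1* was then at -0.07, *Opa1* at -0.04, *Oma1* at -0.06, *Yme1l1* at -0.09, *Dnm1l* at -0.03 and *Fis1* at -0.07, all with an edgeR adjusted p of 0.996.

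The sign of the members' difference depended on the scaling. With library size alone the median of all genes moved to 0.22, and on the log2(TPM + 1) scale to 0.23, where mitochondrially encoded genes held 57.0% to 66.9% of the TPM of a mouse. The members' medians there were 0.07 and 0.19, which is -0.15 and -0.04 relative to all genes, beside -0.14 under TMM. Relative to all genes, 10 of 10 members were lower under TMM and with library size alone, and 7 of 10 as log2(TPM + 1), where *Oma1*, *Yme1l1* and *Dnm1l* lay above the median of all genes. As log2(TPM + 0.1) it was 9 of 10, with a members' median of -0.12 relative to all genes and *Dnm1l* alone above it. No scaling brought a member past an adjusted p of 0.05.

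**Figure D3:**
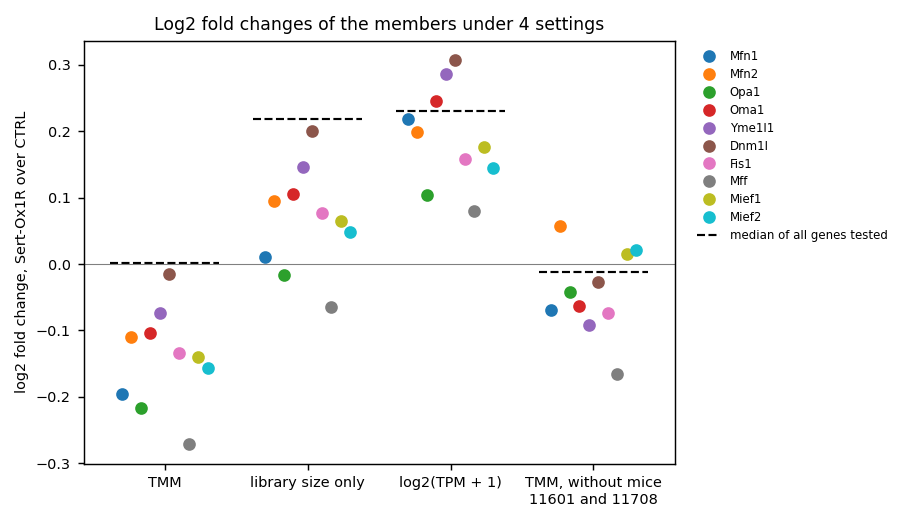
Log2 fold changes of the 10 members (colored points) and the median of all genes tested (dashed lines) with TMM, with library size alone, as log2(TPM + 1), and with TMM without mice 11601 and 11708. With all 8 mice the members lie below 0 with TMM and above 0 as TPM, while their median is below that of all genes in all 4 settings.

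In TPM, which can be compared between genes, the order of the levels over the 8 mice began with *Mff* (54.2 ± 5.63, SD, n = 8) and *Mfn2* (52.8 ± 7.36). These did not differ beyond their spread, with *Mff* above *Mfn2* in 5 of 8 mice. Only the order of their group means differed between CTRL (52.7 and 49.0) and Sert-Ox1R (55.7 and 56.6). *Fis1* (41.9 ± 5.30) and *Opa1* (38.1 ± 5.66) followed, *Fis1* being the higher in 7 of 8 mice, and *Mfn1* (23.1 ± 4.66) came next. *Mief2* (14.8 ± 2.17), *Yme1l1* (14.5 ± 2.72) and *Dnm1l* (13.9 ± 2.62) lay within 1 SD of each other, and *Mief2* was above *Yme1l1* in 6 of 8 mice. The group mean of *Yme1l1* was below that of *Mief2* in CTRL (12.9 and 13.9) and above it in Sert-Ox1R (16.1 and 15.6). In Sert-Ox1R the largest gap was in mouse 11601 (18.3 and 14.0). *Mief1* (5.76 ± 0.733) and *Oma1* (3.07 ± 0.576) were the lowest and kept this order in 8 of 8 mice. The level of *Mff* was above 93.5% of the genes tested and that of *Oma1* above 44.9%.

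Ratios of TPM within a mouse are free of the scaling between mice. Summed fusion GTPases over summed fission genes gave 0.927, 0.806, 0.849 and 0.874 in CTRL and 0.864, 0.800, 0.988 and 0.879 in Sert-Ox1R, so the groups overlapped and the mean ratio was 0.864 ± 0.0506 and 0.882 ± 0.0781 (SD, n = 4 each). The ratio of *Opa1* to *Dnm1l* was 3.11, 2.76, 3.21 and 2.90 in CTRL and 2.91, 2.28, 2.96 and 2.19 in Sert-Ox1R. Only mice 11601 and 11708 lay below the controls in this ratio, while mice 11243 and 11613 lay among them. The ratios of *Mfn1* to *Mfn2* (0.433 ± 0.0623 and 0.441 ± 0.0634), *Oma1* to *Yme1l1* (0.212 ± 0.0323 and 0.215 ± 0.0261) and *Mief1* to *Mief2* (0.384 ± 0.0227 and 0.398 ± 0.0212) differed between CTRL and Sert-Ox1R by less than 1 SD of the controls. No test was run on the ratios.

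Counts divided by TPM give the mean effective length of a gene's transcripts up to 1 factor per mouse, and this length moves when long and short transcripts change places. For *Mfn1*, with 10 annotated transcripts of which 5 are protein coding (616 to 4562 bases), the length relative to the CTRL mean was 0.969, 1.15, 0.962 and 0.921 in CTRL and 1.08, 0.878, 0.978 and 0.826 in Sert-Ox1R. It spanned a log2 range of 0.47 over the mice where the median gene spanned 0.14, a wider range than in 87.9% of 14400 genes, but it varied as much within the groups as between them (exact permutation p = 0.486). In *Oma1* the length was 1.01, 1.01, 0.978 and 1.01 in CTRL and 0.917, 0.995, 0.973 and 0.891 in Sert-Ox1R. There 3 of 4 Sert-Ox1R mice lay below the lowest control, with an unadjusted exact permutation p of 0.0571, the lowest of the 10 members. The exact p of the other 8 members ran from 0.114 to 0.943, and the groups overlapped in all 10, where they lay apart in 2.25% of all 14400 genes. The length entered the TPM but not the CPM, so the *Mfn1* to *Mfn2* ratio in CPM was 0.290 ± 0.0293 in CTRL and 0.275 ± 0.0147 in Sert-Ox1R, again a difference below 1 SD of the controls.

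**Figure D4:**
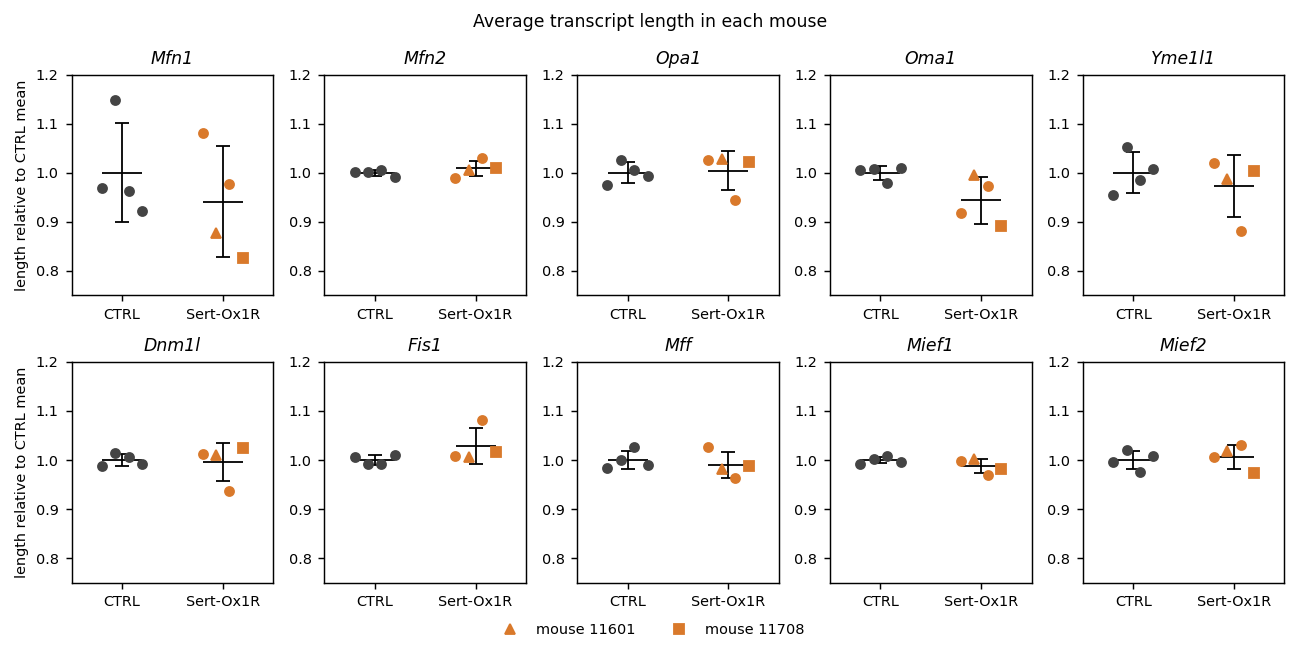
Average transcript length of each member relative to its CTRL mean in each mouse (points), with the mean and SD of 4 mice per group (bars). *Mfn1* has the widest range of the 10 members, 0.826 to 1.15, followed by *Yme1l1*, 0.882 to 1.05.

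The other genes of mitochondrial dynamics gave the same count, 0 of 45 tested genes past an adjusted p of 0.05 in edgeR and 0 in DESeq2. An unadjusted p under 0.05 was found in 4 of 45 under TMM, all lower in Sert-Ox1R, beside 15.2% of all genes in either direction and 4.96% (719 of 14489) lower. On the TPM scale there were 4 of 45 (20.97% of all genes in either direction), with library size alone 6 of 45 (21.4%) and without mice 11601 and 11708 1 of 45 (2.85%), each of them higher. Their median log2 fold change was -0.17 under TMM and -0.02 without mice 11601 and 11708, and 0.15 on the TPM scale, below the 0.23 of all genes. The 11 tested genes of MICOS and cristae, the scaffold that shapes inner membrane folds, had a median of -0.24 under TMM, -0.05 without mice 11601 and 11708 and 0.08 on the TPM scale, with mice 11601 and 11708 the lowest 2 in 11 of 11 in CPM and in 0 of 11 in TPM. Among them *Apoo*, a MICOS subunit, was at 114 ± 4.13 CPM in CTRL and 89.7 ± 13.5 CPM in Sert-Ox1R (log2 fold change -0.34, edgeR adjusted p = 0.316), followed by *Chchd3* (-0.29) and *Minos1* (-0.32).

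The 7 other fusion factors had a median of -0.22, with *Slc25a46* (-0.22), *Phb* (-0.25) and *Stoml2* (-0.23) named for the lowest p. The 7 other fission factors tested had a median of 0.11, with 4 above 0 and 3 below, among them *Dnm2* (0.16), *Inf2* (0.20) and *Mtfr1* (-0.31). *Mtfr1* was at 41.2 ± 5.96 CPM in CTRL and 33.3 ± 3.94 CPM in Sert-Ox1R, with an edgeR adjusted p of 0.323. Regulators of DRP1 and mitofusins (-0.04, with *March5* at -0.25, *Akap1* at 0.23 and *Usp30* at 0.14), other inner membrane proteases (-0.14, with *Afg3l1* at -0.25, *Afg3l2* at -0.17 and *Parl* at -0.11), mitophagy genes (-0.16, with *Fundc1* at -0.20, *Bnip3l* at -0.22 and *Bnip3* at -0.24) and mitochondrial transport genes (-0.15, with *Rhot1* at -0.16, *Trak2* at -0.22 and *Trak1* at -0.14) completed the lists. On the TPM scale the medians of all these lists lay above 0. Without mice 11601 and 11708 the medians of the regulators, the inner membrane proteases and the mitophagy genes also turned to above 0 (0.12, 0.0064 and 0.07). Those of the other fusion factors, other fission factors and transport genes were then -0.04, 0.02 and -0.01.

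A reference list of 8 genes tied to mitochondrial mass had a median of -0.26 under TMM and 0.11 on the TPM scale. Their transcripts do not measure the amount of the organelle. In BAT of random-fed obese Ox1RΔSERT mice, the paper reported unchanged mitochondrial DNA content and TOM20 protein. Under TMM 7 of the genes were lower and 1, *Ppargc1b* at 0.47, was higher. An unadjusted p under 0.05 was found in 4 of 8 under TMM, all lower, beside 15.2% of all genes in either direction. In 3 other settings 0 of 8 were lower and 1 of 8 was higher at that p, on the TPM scale (20.97% of all genes in either direction), with library size alone (21.4%) and without mice 11601 and 11708 (2.85%). *Hspd1*, a matrix chaperone, was at 1085 ± 183 CPM in CTRL and 799 ± 101 CPM in Sert-Ox1R (log2 fold change -0.44, edgeR adjusted p = 0.316). *Tfam*, which packages mitochondrial DNA, and *Cycs*, cytochrome c, had log2 fold changes of -0.25 and -0.42 with the same adjusted p of 0.316. Without mice 11601 and 11708 the median of the list was -0.15. Under TMM with all 8 mice, the median of the 10 members lay nearer to that of all genes than the medians of this list and of the brown adipocyte markers (-0.28). This difference was not tested. The brown adipocyte median was -0.10 without mice 11601 and 11708, 0.02 on the TPM scale and -0.08 with library size alone.

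**Figure D5:**
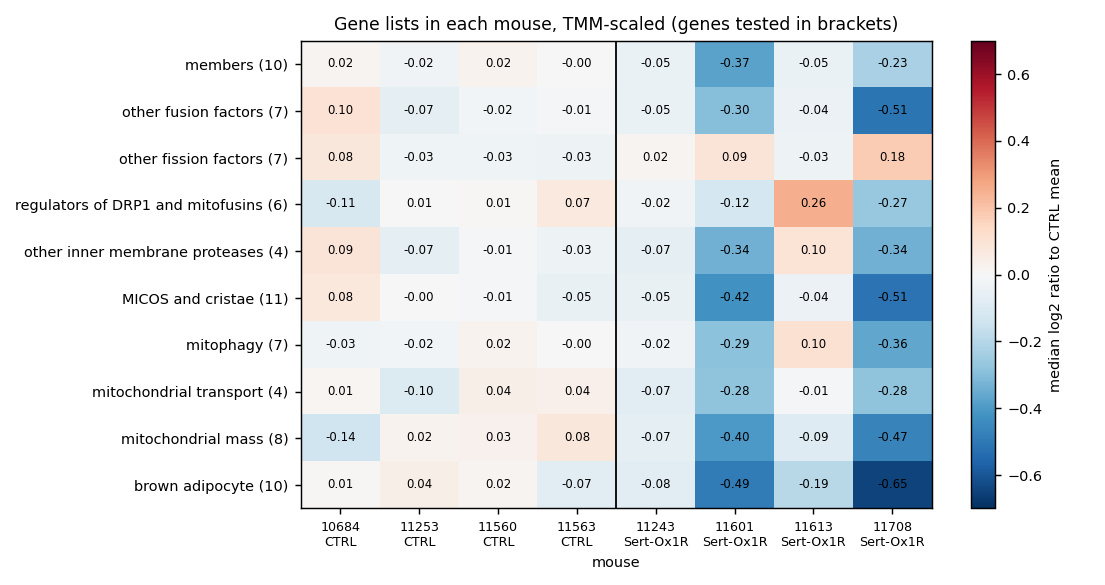
Median log2 ratio of each gene list to its CTRL mean in each mouse, from TMM-scaled CPM, with the number of genes tested in brackets. The members are at -0.37 in mouse 11601 and -0.23 in mouse 11708, and brown adipocyte markers at -0.49 and -0.65.

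Annotated exons of other genes overlapped those of 3 members, with 243 of 5203 exon bases of *Dnm1l* and 195 of 9757 of *Mff* shared with a gene on the opposite strand and 213 of 8106 of *Mief1* with a gene on the same strand. The libraries were stranded, but the strand setting of the quantification is not given in the sources used here, so a small part of these counts could belong to the neighbours.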

How the data were processed

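Poly-A selected, stranded libraries of BAT from 8 mice were quantified by the authors. The submitters' processing notes name STAR, Salmon 0.14.1, DESeq2 1.26.0 and GRCm38.p6. The authors deposited 1 estimated count per gene in each library, without normalization, and TPM, a unit scaled for transcript length.

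Counts were rounded and tested over the whole table with edgeR 4.0.16 (filterByExpr, TMM, quasi-likelihood F test, two-sided, Benjamini-Hochberg over all genes tested) in R 4.3.3. Alternatives used DESeq2 1.42.0, limma 3.58.1, other scalings, filters and left-out mice. Exact permutation tests ran over the 70 assignments of 4 mice against 4. Average transcript length was the count divided by TPM, scaled per mouse by the median gene. The steps were tested on simulated data.

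The members and lists were chosen with earlier results of these data known. Named genes were all members, the 3 tested genes with the lowest edgeR p in each wider or reference list, and the marker with the highest mean TPM in each marker list. *Ucp1* was added after its values were seen, as were the motifs searched and the promoters printed.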

Additional observations from a re-analysis of the deposited data

Results flagged for a closer look

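In 3 of 50 groups of 4 mice, 1 mouse lay far from the other 3 relative to the range of the group. Chance alone gives about 1 in 20 such groups. In Sert-Ox1R, mouse 11613 had a relative transcript length of 0.944 for *Opa1* and of 1.08 for *Fis1*. In CTRL, mouse 11560 had a relative transcript length of 0.978 for *Oma1*. No CPM value of a member and no ratio lay apart in this way.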

How the results depend on the processing

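Of 200 values of single members under other settings, 168 kept their direction and stayed above an adjusted p of 0.05, and 32 changed sign with none past it. Adjusted p ran from 0.139 to 0.996. No member was called under any setting, at an adjusted p under 0.1 included. DESeq2 called 265 genes where edgeR called 0, and the cause was not tested.

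As log2(TPM + 1) the log2 fold changes were 0.22 (*Mfn1*), 0.20 (*Mfn2*), 0.10 (*Opa1*), 0.25 (*Oma1*), 0.29 (*Yme1l1*), 0.31 (*Dnm1l*), 0.16 (*Fis1*), 0.080 (*Mff*), 0.18 (*Mief1*) and 0.15 (*Mief2*), with a median of 0.19 and 0 unadjusted p under 0.05 (20.97% of all genes). As log2(TPM + 0.1) they were 0.23, 0.20, 0.11, 0.32, 0.30, 0.33, 0.16, 0.082, 0.20 and 0.15 in the same order, with a median of 0.20 and 0 under 0.05 (22.1%). With library size alone *Mfn1* was at 0.011, *Mfn2* at 0.095, *Oma1* at 0.11, *Yme1l1* at 0.15, *Dnm1l* at 0.20, *Fis1* at 0.077, *Mief1* at 0.066 and *Mief2* at 0.049, with a median of 0.071 and 0 under 0.05 (21.4%). The median of all genes moved by 0.22 to 0.32 in these settings.

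Without mice 11601 and 11708, chosen for their distance on the first principal component, *Mfn2* was at 0.058, *Mief1* at 0.014 and *Mief2* at 0.021, the members' median at -0.052, and 0 had an unadjusted p under 0.05 (2.85% of all genes). The groups did not overlap in 1 member there, *Yme1l1* (10.8% of all genes), in 1 with upper-quartile scaling, *Yme1l1* (5.50%), and in 1 with the length offset, *Fis1* (5.07%). With that offset *Mfn2* (-0.12), *Opa1* (-0.22), *Fis1* (-0.17) and *Mief2* (-0.17) moved away from 0, and the other members moved toward it. Leaving out 1 mouse at a time gave 0 to 2 members with an unadjusted p under 0.05 (6.86% to 22.4% of all genes), a median of -0.21 to -0.086, 0 to 3 members without overlap (6.39% to 16.0% of all genes), and *Dnm1l* at -0.060 to 0.0087. *Mfn2* (-0.11), *Mief1* (-0.14) and *Mief2* (-0.16) were at -0.029, -0.068 and -0.059 without Sert-Ox1R mouse 11601, and *Mfn2* and *Mief2* at -0.21 and -0.26 without Sert-Ox1R mouse 11613. The causes were not tested. *Oma1*, at 186 to 287 counts, had the least depth of the members.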
